A study of Homo sapiens with 6 samples.

Results

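The genes described here carry out inflammatory and programmed cell death: the caspases CASP1, CASP4 and CASP9, the pore-forming protein GSDMD (gasdermin D), the adaptor PYCARD (ASC) and the necroptosis genes RIPK1, RIPK3 and MLKL. They were chosen by symbol, for their role, and are 8 of the 57820 genes in the count table. None of the 8 symbols occurs more than once. RNA was measured in M14 cells, a human melanoma line that carries a doxycycline-inducible shRNA against STAG2, a subunit of the cohesin complex that shapes DNA loops. KD cells (3 libraries) received doxycycline for 5 days and WT cells (3 libraries) received none. All 6 libraries came from cells with the shRNA construct, so WT here means cells in which the shRNA was not induced. The paper kept its stable lines under hygromycin, blasticidin or puromycin and does not say which drug these cells received. Since doxycycline was given to KD cells alone, an effect of the drug and an effect of STAG2 loss cannot be told apart in these libraries. The comparison asks how the RNA of cell death genes differed after STAG2 depletion in a study concerned with IRF9 and interferon signaling.

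The WT libraries held 24895998, 35181733 and 29157038 expected counts and the KD libraries 30143957, 31155103 and 33089945, in the order of their replicate numbers, which is kept for all values given per library. Levels are given as CPM, counts scaled to a common library size after TMM normalization. A floor of 3 counts was between 0.0870 and 0.112 CPM, and it covers counting error only. Of the 57820 genes, 15605 had enough counts to be tested, and 7 of the 8 cell death genes were among them. RIPK3 was not.

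Inflammasomes are protein platforms that form when a sensor detects a microbial or damage signal. PYCARD links many sensors to CASP1, which matures interleukin-1β and cleaves GSDMD, and CASP4 cleaves GSDMD after binding bacterial lipopolysaccharide inside the cell. The released GSDMD fragment opens pores in the plasma membrane, which is the lytic death called pyroptosis. In necroptosis, RIPK1 recruits RIPK3, and RIPK3 phosphorylates MLKL, which disrupts the membrane. CASP9 is the initiator caspase of the apoptosome in the mitochondrial route to apoptosis. Several of these genes, CASP1, CASP4 and MLKL among them, are known to be inducible by interferon.

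The targeted gene, STAG2, was at 66.5, 34.8 and 28.8 CPM in WT and at 16.0, 7.31 and 6.69 CPM in KD. Every KD library was below every WT library. STAG2 fell by 2.12 on the log2 scale (SE 0.43, edgeR adjusted p = 0.0342, n = 3 per group). Without 1 library the adjusted p passed 0.05 in 4 cases, namely without WT replicate 2 (0.0757), WT replicate 3 (0.0652), KD replicate 2 (0.168) or KD replicate 3 (0.152), and without both replicate 1 libraries STAG2 fell by 2.17 (adjusted p = 0.00298). IRF9, the transcription factor subunit that carries type I interferon signals to DNA, was at 19.0, 21.5 and 19.9 CPM in WT and at 130.3, 123 and 128 CPM in KD. Its log2 fold change was 2.66 (adjusted p = 6.5e-05).

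Replicate 1 of both groups stood apart from the other libraries. WT replicate 1 had 20646 genes above 0 and 5.07% of its counts from mitochondrial genes, against 17244 and 17103 genes and 2.12% and 2.34% in the other WT libraries. KD replicate 1 had the fewest genes above 0, at 16028. Libraries with the same replicate number deviated together from their group means, so for the cell death genes values from a fit with the replicate number as a block are given where that fit changed a call. For STAG2, CASP4, PYCARD, RIPK1 and MLKL, values without both replicate 1 libraries are given as well, a choice made after the data had been seen.

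One of the 7 tested genes, CASP4, passed the test without the block, while 2.59% of all tested genes did, 1.75% as higher and 0.839% as lower in KD. With the block 4 of the 7 passed, CASP4, RIPK1 and MLKL as higher and PYCARD as lower, while 9.52% of all tested genes passed (5.1% higher, 4.42% lower). In DESeq2 2 of the 7 passed, CASP4 and RIPK1, against 6.27% of all tested genes. The 4 genes called with the block were also those whose groups did not overlap, which held for 22.3% of all tested genes (11.8% with every KD library higher and 10.5% with every KD library lower). The median log2 fold change over the 7 genes was 0.66, and over all tested genes it was −0.026. An exact two-sided permutation test of 3 libraries against 3 cannot give a p below 0.1, and CASP4, RIPK1, MLKL and PYCARD each had that p.

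**Figure D1:**
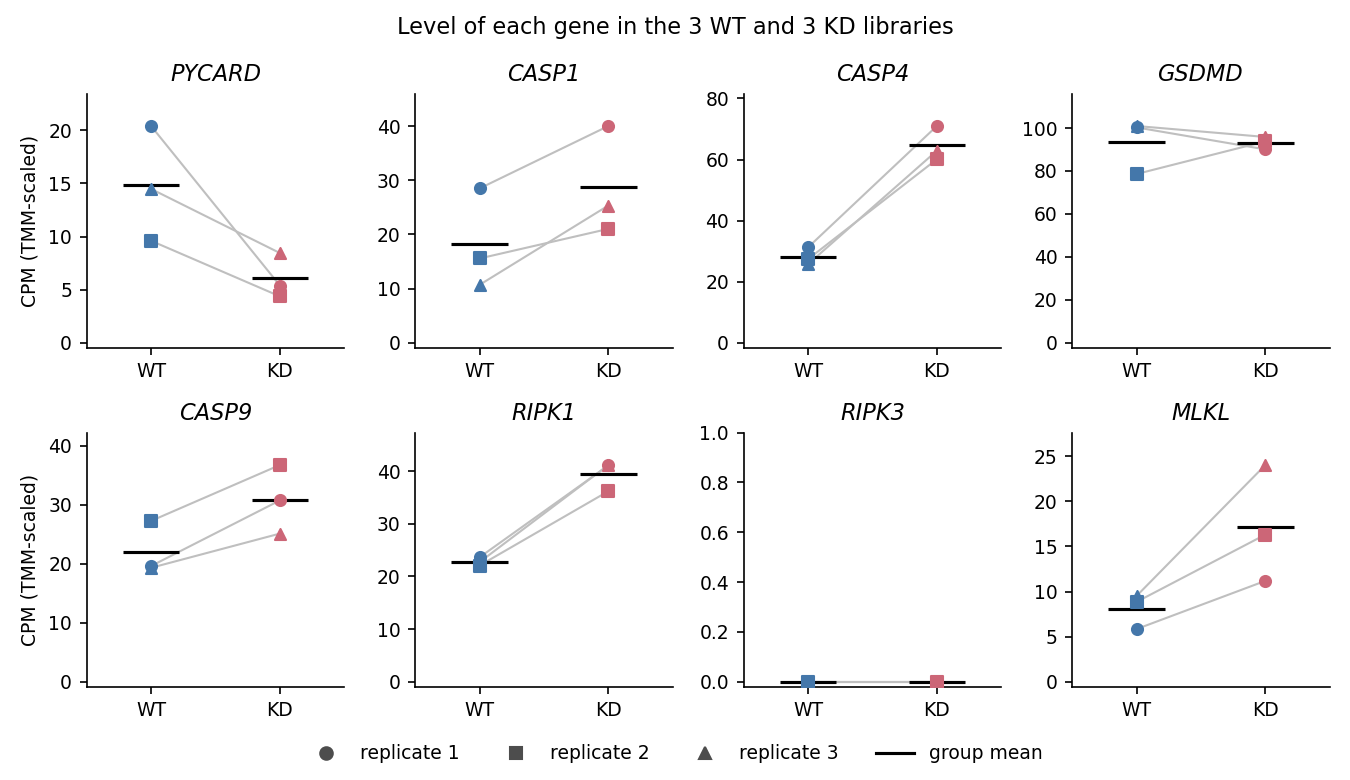
Level of each of the 8 genes in every library, in CPM on the vertical axes, with WT and KD side by side and 1 point per library. Black bars mark the group means (n = 3), and grey lines join libraries of the same replicate number. The KD points lie above all WT points for CASP4 (60.1 to 71.0 against 25.7 to 31.2 CPM), RIPK1 and MLKL and below them for PYCARD, the groups overlap for CASP1, CASP9 and GSDMD, and RIPK3 is at 0 in all 6 libraries.

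CASP4 (ENSG00000196954), the intracellular lipopolysaccharide receptor among the inflammatory caspases, lies on chromosome 11 of GRCh37, from 104813593 to 104840093 on the minus strand. It was at 31.2, 27.4 and 25.7 CPM in WT and at 71.0, 60.1 and 62.9 CPM in KD. The groups did not overlap, and the KD mean (64.7 ± 5.66 CPM, SD, n = 3) was 2.30 times the WT mean (28.1 ± 2.83 CPM). This gave a log2 fold change of 1.20 (SE 0.19, 95% interval 0.77 to 1.64, edgeR adjusted p = 0.0125). By p-value CASP4 ranked 149 among the 15605 tested genes. The rise was similar in the 3 same-numbered pairs of libraries, at 1.18, 1.14 and 1.29 on the log2 scale. It was 1.22 (adjusted p = 0.0103) without both replicate 1 libraries. With 1 library left out it stayed between 1.13 and 1.28, but the adjusted p passed 0.05 without WT replicate 2 (0.0720), WT replicate 3 (0.0662), KD replicate 2 (0.0589) or KD replicate 3 (0.0849).

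CASP1 (ENSG00000137752), the caspase that matures interleukin-1β, lies beside CASP4 on the same strand, from 104896124 to 104905977. CASP1 was at 28.5, 15.6 and 10.7 CPM in WT and at 40.0, 21.0 and 25.3 CPM in KD. The groups overlapped, because WT replicate 1 was above 2 of the KD libraries. Each KD library was nonetheless above the WT library of the same number, by 0.49, 0.43 and 1.25 on the log2 scale. The log2 fold change of 0.66 (SE 0.39, 95% interval −0.20 to 1.52) did not pass the test (adjusted p = 0.496), nor did the value of 0.72 with the block (adjusted p = 0.0756). It depended on single libraries, at 0.35 without KD replicate 1, 0.38 without WT replicate 3 and 1.12 without WT replicate 1. CASP1 counts held fractions in all 6 libraries, which means that RSEM shared reads between it and similar genes. Summed with its neighbours CARD16 and CARD17, short decoy genes made from copies of the CASP1 start, its log2 fold change was 0.74 (adjusted p = 0.372).

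PYCARD (ENSG00000103490) encodes the adaptor that brings CASP1 to most inflammasome sensors, and it lies on chromosome 16, from 31212807 to 31214771 on the minus strand. It was at 20.4, 9.60 and 14.5 CPM in WT and at 5.38, 4.36 and 8.45 CPM in KD. Every KD library was below every WT library, with means of 14.8 ± 5.42 CPM in WT and 6.06 ± 2.12 CPM in KD. Its log2 fold change of −1.29 (SE 0.39, 95% interval −2.17 to −0.41) had an adjusted p of 0.143 without the block. With the block PYCARD fell by 1.28 on the log2 scale (SE 0.31, adjusted p = 0.0288), and with no filter on low counts it also passed without the block (adjusted p = 0.0401). The difference was largest in the replicate 1 pair (−1.92) and smaller in the pairs of replicates 2 (−1.14) and 3 (−0.78). Without both replicate 1 libraries it was −0.90 (adjusted p = 0.272).

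GSDMD (ENSG00000104518), whose product is the substrate of CASP1 and CASP4 and forms the pyroptotic pore, was at 100.3, 78.6 and 101 CPM in WT and at 90.1, 93.8 and 95.8 CPM in KD. All KD libraries lay within the range of the WT libraries. The means were 93.3 ± 12.7 and 93.2 ± 2.94 CPM, and the 95% interval of the log2 fold change ran from −0.41 to 0.41. The fitted log2 fold change was −0.00061 (SE 0.18, adjusted p = 0.999).

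CASP9 (ENSG00000132906), on chromosome 1 from 15817327 to 15853029, was at 19.6, 27.2 and 19.3 CPM in WT and at 30.7, 36.7 and 25.1 CPM in KD. The groups overlapped, since KD replicate 3 was below WT replicate 2. A log2 fold change of 0.48 (SE 0.25, 95% interval −0.077 to 1.04) did not pass the test (adjusted p = 0.428, and 0.147 with the block).

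RIPK1 (ENSG00000137275), the kinase that directs signals from death receptors either to survival or to cell death, lies on chromosome 6, from 3064058 to 3115421 on the plus strand. It was at 23.6, 22.1 and 22.7 CPM in WT and at 41.1, 36.2 and 41.2 CPM in KD. The WT libraries lay within a narrow range (22.8 ± 0.789 CPM), and all KD libraries were above it (39.5 ± 2.85 CPM). The log2 fold change was 0.79 (SE 0.20, 95% interval 0.34 to 1.24), with an adjusted p of 0.0800 without the block. RIPK1 passed the test with the block (0.79, SE 0.18, adjusted p = 0.0202) and in DESeq2 (adjusted p = 0.0226), and without both replicate 1 libraries the adjusted p was 0.0624.

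MLKL (ENSG00000168404), the executioner of necroptosis, lies on chromosome 16, from 74705753 to 74734858 on the minus strand. It was at 5.83, 8.85 and 9.50 CPM in WT and at 11.2, 16.3 and 24.0 CPM in KD. All KD values exceeded all WT values, though the KD libraries were widely spread (17.2 ± 6.47 CPM, against 8.06 ± 1.96 CPM in WT). The log2 fold change of 1.09 (SE 0.36, 95% interval 0.28 to 1.89) had an adjusted p of 0.174. With the block MLKL rose by 1.05 (SE 0.25, adjusted p = 0.0269), and without both replicate 1 libraries the log2 fold change was 1.14 (adjusted p = 0.0676).

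RIPK3 (ENSG00000129465), the kinase between RIPK1 and MLKL, was at 0 counts in all 6 libraries. The highest level that a count of 0 allows was 0.112 CPM, in WT replicate 1. RIPK3 lies on chromosome 14, from 24805231 to 24809228 on the minus strand, and its start is 179 kb from that of IRF9. Of 26 tested genes that start within 200 kb of RIPK3, IRF9 alone passed the test, with and without the block. RIPK3 was therefore not detectable at this depth in either group.

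**Figure D2:**
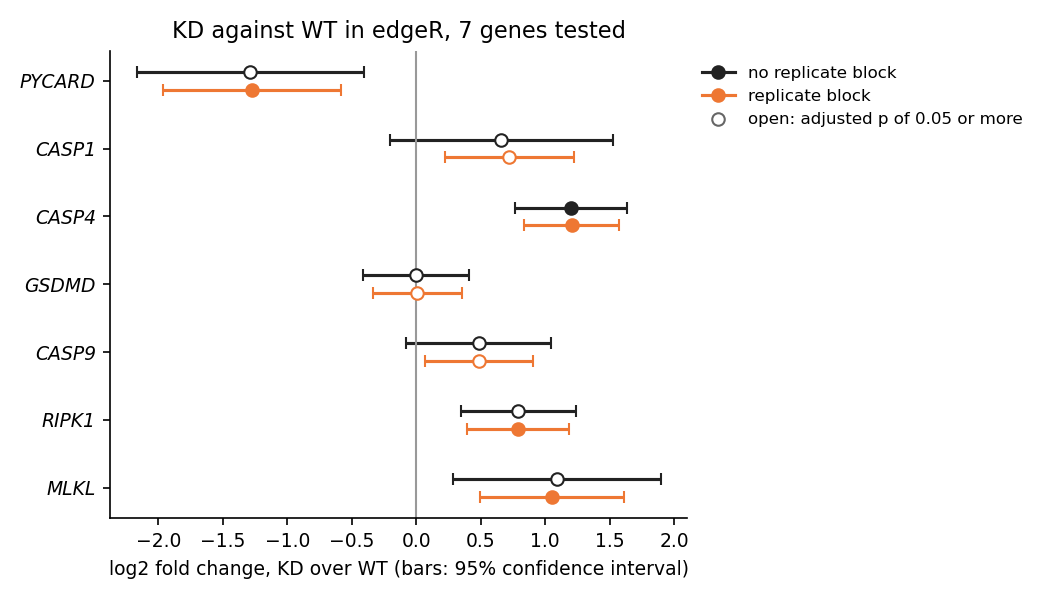
Log2 fold change (KD over WT, horizontal axis) of the 7 tested genes with 95% intervals, from the edgeR fit without and with the replicate block, with open points where the adjusted p was 0.05 or more. The unadjusted intervals of CASP4, RIPK1 and MLKL lie above 0 and that of PYCARD below 0 in both fits, and GSDMD is centred near 0 with an interval from −0.41 to 0.41 without the block.

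Levels of different genes can be compared only per length. In CPM per kilobase of merged exons, the WT means ran from GSDMD (18.3) through PYCARD (8.94), CASP1 (4.60), CASP4 (4.22) and CASP9 (4.18) to RIPK1 (1.87), MLKL (1.42) and RIPK3 (0). The WT libraries of PYCARD, CASP1, CASP4 and CASP9 overlapped between neighbours in that order, whereas GSDMD stood above PYCARD and RIPK1 above MLKL without overlap. In KD the order was GSDMD (18.3), CASP4 (9.70), CASP1 (7.26), CASP9 (5.85), PYCARD (3.65), RIPK1 (3.25), MLKL (3.02) and RIPK3 (0). Only GSDMD and CASP4, and MLKL and RIPK3, were neighbours without overlap there. CASP4 thus moved from the fourth to the second place and PYCARD from the second to the fifth. The order depended on which length was used. Per kilobase of the MANE Select transcript, the single reference transcript of each gene, CASP4 was second in WT as well, and in KD its libraries overlapped those of GSDMD (means of 49.9 and 54.1).

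**Figure D3:**
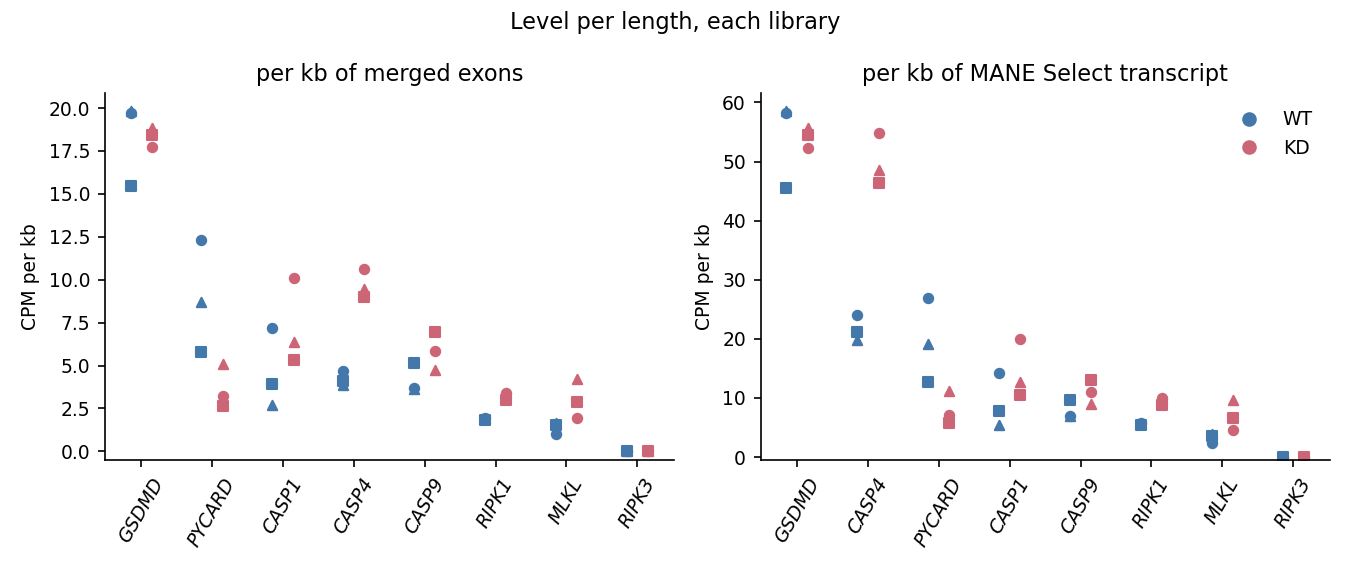
Level of each gene in CPM per kilobase (vertical axes) of merged exons (left) and of the MANE Select transcript (right), with 1 point per library and WT and KD in separate colours. Per kilobase of merged exons, GSDMD has the highest mean in both groups (18.3), and CASP4 has the second highest in KD (9.70), after 4.22 in WT. Per kilobase of the MANE Select transcript, GSDMD is highest (54.1) and CASP4 second in both groups (21.7 in WT and 49.9 in KD).

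The stretch upstream of RIPK1, CASP4 and MLKL is shown because these genes were higher in KD with the block and interferon signaling is the setting of the study. RefSeq promoter windows, which run from 250 bases before to 50 after a transcript start, were used for 5 of the 8 genes (CASP4, CASP9, MLKL, PYCARD and RIPK1). CASP1, GSDMD and RIPK3 were not searched. The windows were searched on both strands for the core of interferon response elements, GAAA repeated after any 2 bases. Printed 5′ to 3′ on GRCh37, ended where an exon of the gene itself begins, are 250 bases before 1 of the RIPK1 starts (chr6:3068362-3068611, plus strand), 96 bases upstream of CASP4 (chr11:104839456-104839551, minus strand) and 152 bases upstream of MLKL (chr16:74734859-74735010, minus strand). The RIPK1 and CASP4 stretches lie in introns of longer annotated transcripts of these genes, and the MLKL stretch lies outside the gene. Capitals mark the match.
RIPK1: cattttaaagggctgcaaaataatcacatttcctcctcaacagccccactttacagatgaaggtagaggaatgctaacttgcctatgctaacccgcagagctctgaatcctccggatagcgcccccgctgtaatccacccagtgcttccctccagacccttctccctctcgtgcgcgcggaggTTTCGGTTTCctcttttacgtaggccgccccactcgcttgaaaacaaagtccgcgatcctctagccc
CASP4: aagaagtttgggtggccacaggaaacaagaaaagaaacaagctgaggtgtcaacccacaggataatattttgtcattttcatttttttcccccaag
MLKL: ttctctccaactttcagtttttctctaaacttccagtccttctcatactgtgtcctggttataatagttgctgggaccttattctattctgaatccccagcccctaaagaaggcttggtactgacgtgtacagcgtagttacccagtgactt
The RIPK1 match lies 67 to 58 bases before that start and appears again in the overlapping window of another RIPK1 start, but the window at the outermost RIPK1 start (chr6:3063951-3064250) held none, so 2 of the 3 RIPK1 windows share this 1 site. CASP4, CASP9, MLKL and PYCARD held no match in their whole windows, so the core was found in 1 of the 5 genes, against 4.38% of the 27305 genes with a window. A second pattern searched, TTCNNNGAA, the core of STAT sites, was in the windows of none of the 5 genes and of 9.38% of all genes. A match describes the letters in the window and is not evidence that a factor binds there.

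The 8 genes were set beside 68 others of the same routes, listed by role. Of the 68, 56 were tested. None passed the test without the block in edgeR, 14 had an unadjusted p under 0.05, and 4 passed in DESeq2 and 2 in limma-voom. Of all tested genes, 14.8% had an unadjusted p under 0.05 and 2.64% passed in limma-voom. With the block 6 were higher and 1 was lower. Their median log2 fold change was 0.20. These 7 calls with the block are 12.5% of the 56 genes, against 9.52% of all tested genes (5.1% higher and 4.42% lower). The DESeq2 count stands against 6.27%, so neither of these 2 counts is far from the general share. The 14 genes with an unadjusted p under 0.05 are a larger share of the 56 than 14.8%. Without the block in edgeR the share of the 56 is smaller than the general 2.59%. The counts in each list below are small and are to be read against the same shares.

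Among the 7 inflammatory caspases and their decoys, CASP4 was the only one of 3 tested genes to pass. CASP5, the closest relative of CASP4, and CASP12, CARD17 and CARD18 were at 0 in every library. CARD16, singled out after its values had been seen, was at 5.89, 5.36 and 3.11 CPM in WT and 12.1, 9.42 and 7.86 CPM in KD (adjusted p = 0.240). None of the 7 tested apoptotic caspases passed in edgeR, with or without the block, or in DESeq2, and 1 had an unadjusted p under 0.05 (CASP8, named after its values had been seen, the caspase that initiates death-receptor apoptosis and restrains necroptosis, with a log2 fold change of 0.63 and an adjusted p of 0.207). CASP14 was at 0 throughout.

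Of 13 tested genes among the inflammasome sensors and their partners, none passed without the block, 3 had an unadjusted p under 0.05 (PYCARD, IFI16 and NLRP3) and 1 passed in DESeq2 (IFI16). NLRP3, the sensor best known for inflammasome assembly after cell damage, was at 0.149, 2.03 and 1.35 CPM in WT and at 4.39, 5.72 and 6.82 CPM in KD. It rose with the block (log2 fold change 2.71, SE 0.73, adjusted p = 0.0446), and its adjusted p without the block was 0.207. IFI16, a sensor of DNA, was at 201, 184 and 156 CPM in WT and at 280, 345 and 340 CPM in KD, and its log2 fold change of 0.84 passed with the block (adjusted p = 0.00966, against 0.0599 without) and in limma-voom without it (adjusted p = 0.0442). For both sensors, as for CASP4, all KD libraries were above all WT libraries.

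Of 6 genes of the interleukin-1 and interleukin-18 families and their antagonists, 3 were tested, IL1B and the antagonist genes IL1RN and IL18BP. None passed in edgeR without the block, 2 had an unadjusted p under 0.05, and 2 passed in DESeq2 and 1 in limma-voom. IL1B, which encodes interleukin-1β, was at 2.38, 3.28 and 6.26 CPM in WT and at 13.4, 11.4 and 14.4 CPM in KD. Its groups did not overlap, and it rose with the block (1.82, adjusted p = 0.00936) and in DESeq2 (adjusted p = 0.00783) but not in edgeR without the block (adjusted p = 0.0678). IL1A and IL33 were at 0 in every library. Of the gasdermins and their relatives, 4 of 7 genes were tested and none passed in edgeR or DESeq2 or had an unadjusted p under 0.05, and GSDMC was at 0.

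In the necroptosis list 17 of 18 genes were tested, and RIPK3 was the exception. None passed without the block, 6 had an unadjusted p under 0.05 and 1 (RIPK1) passed in DESeq2. With the block RIPK1, MLKL and TICAM1 were higher and none was lower, where 5.1% and 4.42% of all tested genes were. TICAM1 (TRIF), the adaptor through which TLR3 can reach RIPK1, was at 15.8, 16.6 and 26.9 CPM in WT and at 31.7, 43.9 and 35.2 CPM in KD (0.93 with the block, adjusted p = 0.0287, against 0.142 without). The median log2 fold change of the 17 genes was 0.39.

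All 18 genes of mitochondrial apoptosis were tested. None passed without the block, 5 had an unadjusted p under 0.05 and 1 (MCL1) passed in DESeq2. With the block the survival genes BCL2L1 (0.81, adjusted p = 0.0202) and MCL1 (0.67, adjusted p = 0.0194) rose, and BAD, which encodes an opponent of BCL2L1, fell by 0.70 (adjusted p = 0.0400). BCL2L1 was at 70.0, 123 and 125 CPM in WT and at 174, 182 and 182 CPM in KD. BAD was at 41.1, 44.9 and 60.6 CPM in WT and at 31.0, 27.8 and 30.4 CPM in KD. Their adjusted p-values without the block were 0.157 and 0.143, and for MCL1 0.115.

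**Figure D4:**
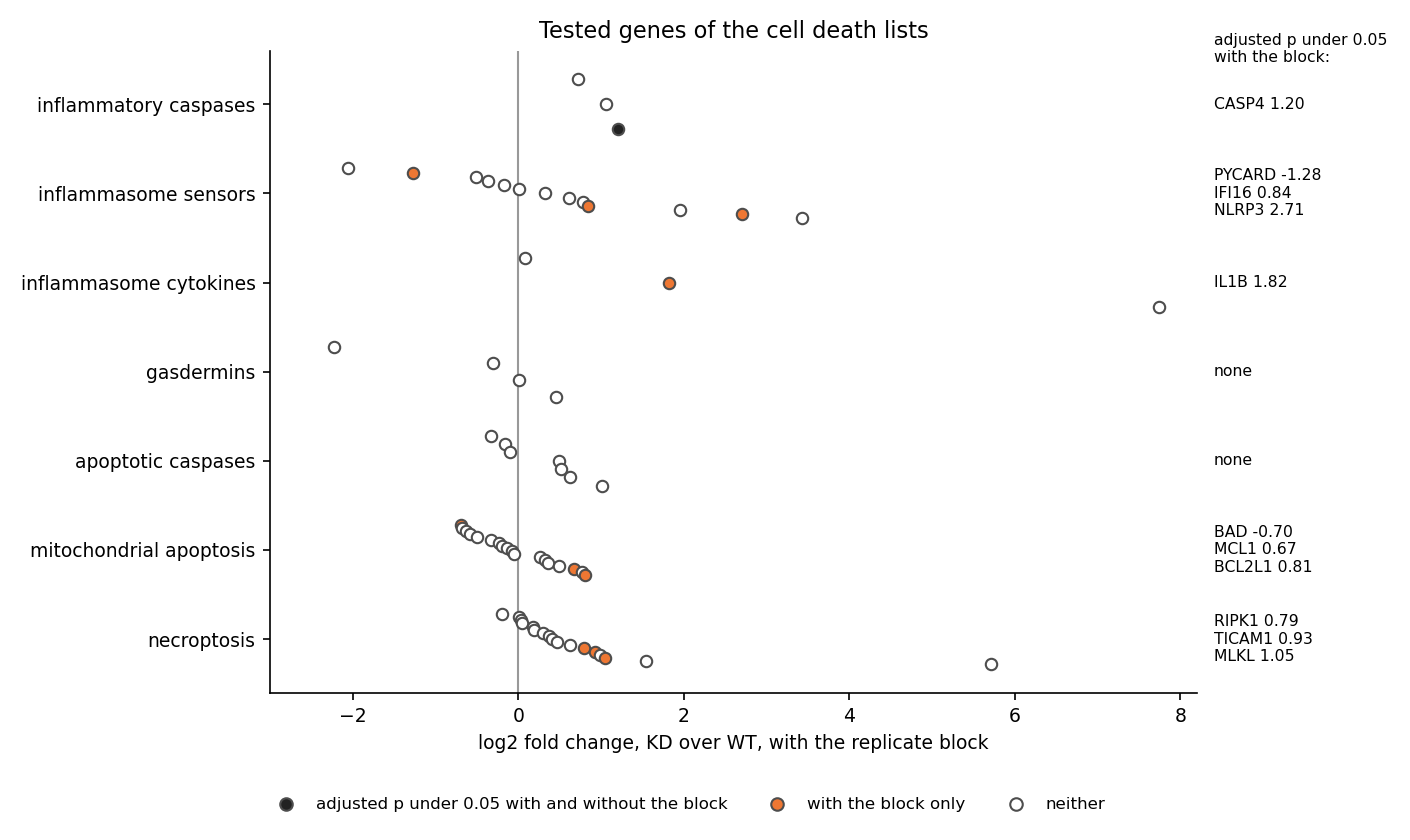
Log2 fold change with the replicate block (KD over WT, horizontal axis) of every tested gene in the 7 lists, 1 point per gene, with the genes that passed the test named at the right. CASP4 alone passed with and without the block, and the 2 points farthest to the right, IL1RN and ZBP1, have 3 and 2 WT libraries at 0 counts, so that their fitted values depend on the prior count.

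The 3 genes whose levels were closest to those of CASP4 over the 6 libraries, after each gene's mean was subtracted from log2(CPM + 1), were KIF6 (distance 0.166), RAB9A (0.168) and ALDH3A2 (0.231), out of 13534 genes. KIF6 encodes a kinesin, RAB9A a GTPase of late endosomes and ALDH3A2 a fatty aldehyde dehydrogenase. The points share the same 6 libraries, so the distance is a description. Near CASP4 itself, the 2 tested genes that start within 200 kb are CASP1 and CARD16, and neither passed the test.

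Annotated genes overlap 4 of the 8. CELA2B (opposite CASP9), C16orf98 (opposite PYCARD), RNA5SP201 (opposite RIPK1) and RP11-934B9.3 (on the RIPK3 strand) were at 0 in every library. A further antisense gene opposite RIPK1, which spans the RIPK1 stretch printed above, had means of 16.1 counts in WT and 12.9 in KD. The strand setting of the counting is not given in the sources used here, so reads of RIPK1 and of that gene may not be fully separated.

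Marker genes moved between the groups. The 8 melanocyte markers, led by PMEL, were all detected and summed to 6311, 1916 and 1861 CPM in WT and to 2606, 1267 and 1195 CPM in KD. Without the block S100B alone of the 8 passed, with a fall of 1.35 on the log2 scale (adjusted p = 0.00949). With the block 6 of the 8 were lower. TYR had a higher mean in KD, at 380, 140 and 128 CPM in WT and at 367, 227 and 233 CPM in KD. Its log2 fold change was 0.35 (adjusted p = 0.792) without the block and 0.51 (adjusted p = 0.129) with it. Leukocytes also express CASP1, CASP4, NLRP3 and IL1B, and 8 leukocyte markers summed to 27.8, 43.0 and 39.8 CPM in WT and to 128, 93.6 and 93.1 CPM in KD. Most of each sum came from CD68, a lysosomal protein gene that is not restricted to leukocytes. CD68 was at 25.3, 39.1 and 36.2 CPM in WT and at 125, 88.9 and 88.4 CPM in KD (log2 fold change 1.59, adjusted p = 0.00855). LYZ, the lysozyme gene of myeloid cells, was at 0.875, 0.864 and 0.473 CPM in WT and at 2.17, 1.97 and 2.17 CPM in KD, without overlap (log2 fold change 1.51, adjusted p = 0.447). ITGAX, another leukocyte gene, which was chosen after its values were seen, had a log2 fold change of 2.30 (adjusted p = 0.00832). CD14 and CSF1R were tested and did not pass, and ITGAM and PTPRC were too sparse to be tested. The defining marker PTPRC (CD45), whose values were seen before it was singled out, had 16 counts in WT replicate 3 and 0 in the other libraries, and CD3E was at 0 in all 6. The 5 fibroblast markers, most abundantly COL1A1, summed to 3.03, 88.3 and 58.9 CPM in WT and to 2.49, 21.7 and 18.1 CPM in KD, and COL1A1 was lower with the block. In bulk RNA, a change in the number of cells of one state and a change in RNA per cell cannot be told apart, and the part of these shifts in the values above was not tested.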

How the data were processed

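The authors mapped directional, poly(A)-selected reads to hg19 with STAR and deposited RSEM expected counts per gene, not scaled between libraries. Expected counts were rounded here, genes were kept by filterByExpr, and KD was compared with WT (3 libraries each) by the quasi-likelihood test of edgeR 4.0.16 in R 4.3.3 with TMM scaling. Adjustment was Benjamini-Hochberg across the 15605 tested genes, and an adjusted p under 0.05 passed. Columns were matched to samples by their titles, and none was left over. The paper describes its samples as biologically independent, the labels do not say whether replicates were separate cultures, and p-values measure the spread between these libraries. All libraries differed by more than counting noise.

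The labels give both groups replicate numbers 1 to 3. After group means were subtracted, log2 CPM correlated between same-numbered libraries with r = 0.607, 0.479 and 0.380 over 8932 genes with a mean of at least 10 CPM. Other pairs with a replicate 1 library gave −0.555 to −0.395. WT replicate 2 with KD replicate 3 gave 0.305, and WT replicate 3 with KD replicate 2 gave 0.198. The numbers were taken to pair the libraries, although no source names a pairing. Replicates 2 and 3 are less clearly told apart by these values than replicate 1.

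The 8 genes and the lists of related genes and markers were chosen with earlier results of these data known. Named are the 8 genes, STAG2 and IRF9, list genes that passed with or without the block or were under 3 counts throughout, the 3 genes nearest in pattern to a gene that passed (mean of at least 1 CPM), and passing genes within 200 kb of it. Markers and overlapping genes are named from their lists, and further genes are marked where they appear as chosen with their values in view. Alternatives were the replicate block, DESeq2 1.42.0, upper-quartile scaling, limma-voom (limma 3.58.1), a minimum of 10 counts per library, no filter on low counts, sums with similar or same-strand overlapping genes, and each library left out. Leaving out both replicate 1 libraries and the MANE Select length were added after the data had been seen. Gene positions and exon lengths came from GENCODE 44 lifted to GRCh37, which held 55538 of the 57820 genes, and promoter windows from RefSeq (GRCh38.p14), matched letter for letter to GRCh37.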

Additional observations from a re-analysis of the deposited data

How the results depend on the processing

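Of all tested genes, 404 passed in edgeR without a block. The count was 1486 with the replicate block, 979 in DESeq2 (547 higher and 432 lower in KD, against 273 and 131), 1103 with no filter on low counts (573 higher and 530 lower), 757 without both replicate 1 libraries and 121 to 531 with 1 library left out. Of the 8 cell death genes 1 passed, against 4 with the replicate block, 2 in DESeq2, 2 with no filter (CASP4 and PYCARD) and 0 to 1 with 1 library left out. Of all 76 listed genes 1 passed, against 11 with the block, 6 in DESeq2, 3 in limma-voom, 9 with no filter, 2 with at least 10 counts in every library, 3 without both replicate 1 libraries and 0 to 2 with 1 library left out. The block changed no call of CASP1, CASP9, GSDMD or STAG2.

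The log2 fold change of STAG2 was −2.63 to −1.68 with 1 library left out (adjusted p from 0.0183 to 0.168). Directions of the other 6 tested cell death genes held under all alternatives run. GSDMD was near 0 and turned positive with the block (0.0081), in limma-voom (0.010), with at least 10 counts in every library (0.0010) and without both replicate 1 libraries (0.087), and it was −0.11 to 0.054 with 1 library left out. Other scaling moved the median of all tested genes by at most 0.032 on the log2 scale. The sum over repeated symbols was not run, since no symbol of the 8 genes is repeated. A count of 0 bounds RIPK3 only to the floor of 3 counts per library.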

Other observations

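Some genes of the same routes, chosen after their values were seen, were at or near 0 in WT. IL1RN, which encodes the antagonist of the interleukin-1 receptor, had 0 counts in each WT library and was at 1.52, 0.508 and 0.796 CPM in KD (edgeR adjusted p = 0.127, DESeq2 adjusted p = 0.0112). ZBP1, a sensor of Z-form nucleic acids that can engage RIPK3, was at 0, 0 and 0.983 CPM in WT and at 4.69, 3.69 and 2.96 CPM in KD (adjusted p = 0.309, and 0.0757 with the block). GSDMA, a gasdermin of skin, was at 0 in WT and KD replicate 1 and at 2.20 and 1.35 CPM in KD replicates 2 and 3, too sparse to be tested.

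Near PYCARD on chromosome 16, ITGAX, which encodes the integrin CD11c, starts 152 kb from PYCARD and was higher in KD (log2 fold change 2.30, adjusted p = 0.00832). It was chosen after its values were seen, among the 13 tested genes that start within 200 kb of PYCARD.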
